A study of Oncorhynchus mykiss with 15 samples.

Results

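Liver microRNAs (miRNAs) of rainbow trout (Oncorhynchus mykiss) sampled after 3 h of reoxygenation were compared with those of control fish. The comparison used 6 of the 15 small RNA libraries of the series, chosen by their labels: 3 libraries of control liver and 3 of liver after reoxygenation. All fish of the series are labelled wild-type, and all libraries were made from liver total RNA extracted with Trizol and were sequenced on an Illumina HiSeq instrument. The other 9 libraries, from fish under hypoxia stress for 3, 12 or 24 h, entered the estimate of the spread, and those of 24 h also served as a second reference. The labels used here give the time after reoxygenation as 3 h. They do not give the oxygen level, the length of the hypoxia that came before reoxygenation, or the strain, age and sex of the fish. Nothing in the labels says whether the libraries of a group came from separate fish, so a p-value here reflects only how far these samples spread, which may be technical.

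Mature miRNAs are short RNAs cut from hairpin precursors and loaded into Argonaute proteins, where they direct the repression of messenger RNAs. Target choice rests mainly on the seed, bases 2 to 8 from the 5′ end, so miRNAs with a common seed are grouped as a family. A precursor gives an RNA from each arm, called 5p and 3p, of which usually 1 is the more abundant. In fish liver, as in that of mammals, miR-122 of hepatocytes is the leading miRNA, and several miRNAs change with oxygen supply.

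The sequences of the fish-named miRNAs that differed after reoxygenation are shown with their seeds in capitals, because the seeds put them into families, and beside them stand relatives that did not pass the test. The sequences are those of the deposited table, written 5′ to 3′ with T for U.
ssa-miR-101b-3p_R+1: tACAGTACtatgataactgaag
ssa-miR-101a-3p: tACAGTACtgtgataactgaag
ssa-miR-101b-5p_L+1R-3: tCAGTTATcatggtaccggtgc
ssa-miR-19a-3p: tGTGCAAAtctatgcaaaactg
ssa-miR-19a-3p_R+1: tGTGCAAAtctatgcaaaactgt
ssa-miR-19c-3p: tGTGCAAAtccatgcaaaactg
ssa-miR-19d-3p: tGTGCAAAcccaagcaaaactg
ssa-miR-15a-5p_L-2_1ss18GA: tAGCAGCAcgtcatgatttgt
ssa-miR-181a-1-3p: aCCATCGAccgttaaatgtacc
ssa-miR-25-3p: cATTGCACttgtctcggtctga
ssa-miR-92a-3p: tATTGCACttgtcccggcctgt
ola-miR-199a-5p_R+1_1ss18CG: cCCAGTGTtcagactacgtgttc
ssa-miR-199a-5p: cCCAGTGTtcagactacctgttc
The prefix names the species of the matched database entry (ssa for Atlantic salmon, ola for medaka), not the organism of the sample, and the ending records bases added, removed or changed against that entry. Counted from the 5′ end, ssa-miR-101a-3p and ssa-miR-101b-3p_R+1 differ by G10A and ssa-miR-19a-3p and ssa-miR-19c-3p by T11C, both outside the seed. ssa-miR-19c-3p and ssa-miR-19d-3p differ by T9C and T13A. The 2 miR-199a-5p sequences differ by C18G. Forms this close can share reads.

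The deposited table lists 1213 rows, which hold 1019 distinct sets of 15 values, here called profiles. The test covered the 622 profiles that averaged 10 or more. The values are normalized and rounded on a scale that the sources used here do not give, so how many reads stand behind a value is unknown, and intervals for counting error are left out. Summed over distinct profiles, the 6 libraries held 2090585 to 4791570. The labelled tissue was checked on markers: miR-122, miR-192, miR-194 and miR-148 of liver parenchyma made up 27.7% to 35.8% of the total in control and 28.8% to 59.4% after reoxygenation. miR-122 alone took 31.7%, 33.6% and 24.7% in the control libraries and 57.2%, 26.5% and 52.9% in the reoxygenation libraries, so the groups overlapped. In bulk tissue, fewer cells of a type and less RNA per cell cannot be told apart.

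Reoxygenation library 1 stood apart before any test. Across tested profiles the SD of log2 differences was 2.92 and 2.98 between it and libraries 2 and 3, against 1.48 between those 2. Control library 1 differed from control libraries 2 and 3 by 1.92 and 1.79, against 1.09 between those. The library numbered 1 also stood furthest off in each hypoxia group. The SDs were 1.46 and 1.40 against 1.20 at 3 h, 1.43 and 1.47 against 1.07 at 12 h, and 2.24 and 2.14 against 1.41 at 24 h. Whether libraries with the same number share a batch is not known, and the fit with a replicate block given below cannot decide it. Rows named only after mammal entries made up 2.82% of the total of reoxygenation library 1, 1.16% and 0.623% of libraries 2 and 3, and 0.396%, 0.817% and 1.31% of the control libraries. Results are therefore given with all libraries and without reoxygenation library 1.

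After reoxygenation, the 3p forms of miR-101 and miR-19 that passed the test stood 5.18 to 27.6 times above control. Other forms with these seeds did not pass with all libraries. Single forms of miR-15a, miR-181a-1-3p and miR-25 stood 2.44 to 4.92 times above control, and a variant form of miR-199a-5p and a let-7g-3p form were lower. In limma, 15 of 622 profiles passed (2.41%), 11 higher (1.77%) and 4 lower (0.643%), and 104 had an unadjusted p under 0.05. The median difference of all tested profiles was -0.16 on the log2 scale. All 3 reoxygenation libraries lay above all 3 controls in 46 profiles (7.4%) and below them in 60 (9.65%). The 15 calls rest on the spread shared by all 5 groups: with only the 6 libraries in the fit, limma called 0, with 60 at an unadjusted p under 0.05 and a smallest limma adjusted p of 0.0884. The count was 15, 5 and 6 without control libraries 1, 2 and 3, and 50, 25 and 3 without reoxygenation libraries 1, 2 and 3. With any 1 of the 6 libraries left out, ssa-miR-101b-3p_R+1, ssa-miR-15a-5p_L-2_1ss18GA and ola-miR-199a-5p_R+1_1ss18CG passed each time, and each of the other 12 missed the threshold at least once. With limma library weights, which give outlying libraries less weight, 90 passed, 37 higher and 53 lower. Scaled to the library total, the median difference moved from -0.16 to -0.56, and of 10 calls 6 were higher and 4 lower. With a GC correction the median was 0.11, and of 18 calls (2.89%) 15 were higher and 3 lower.

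**Figure D1:**
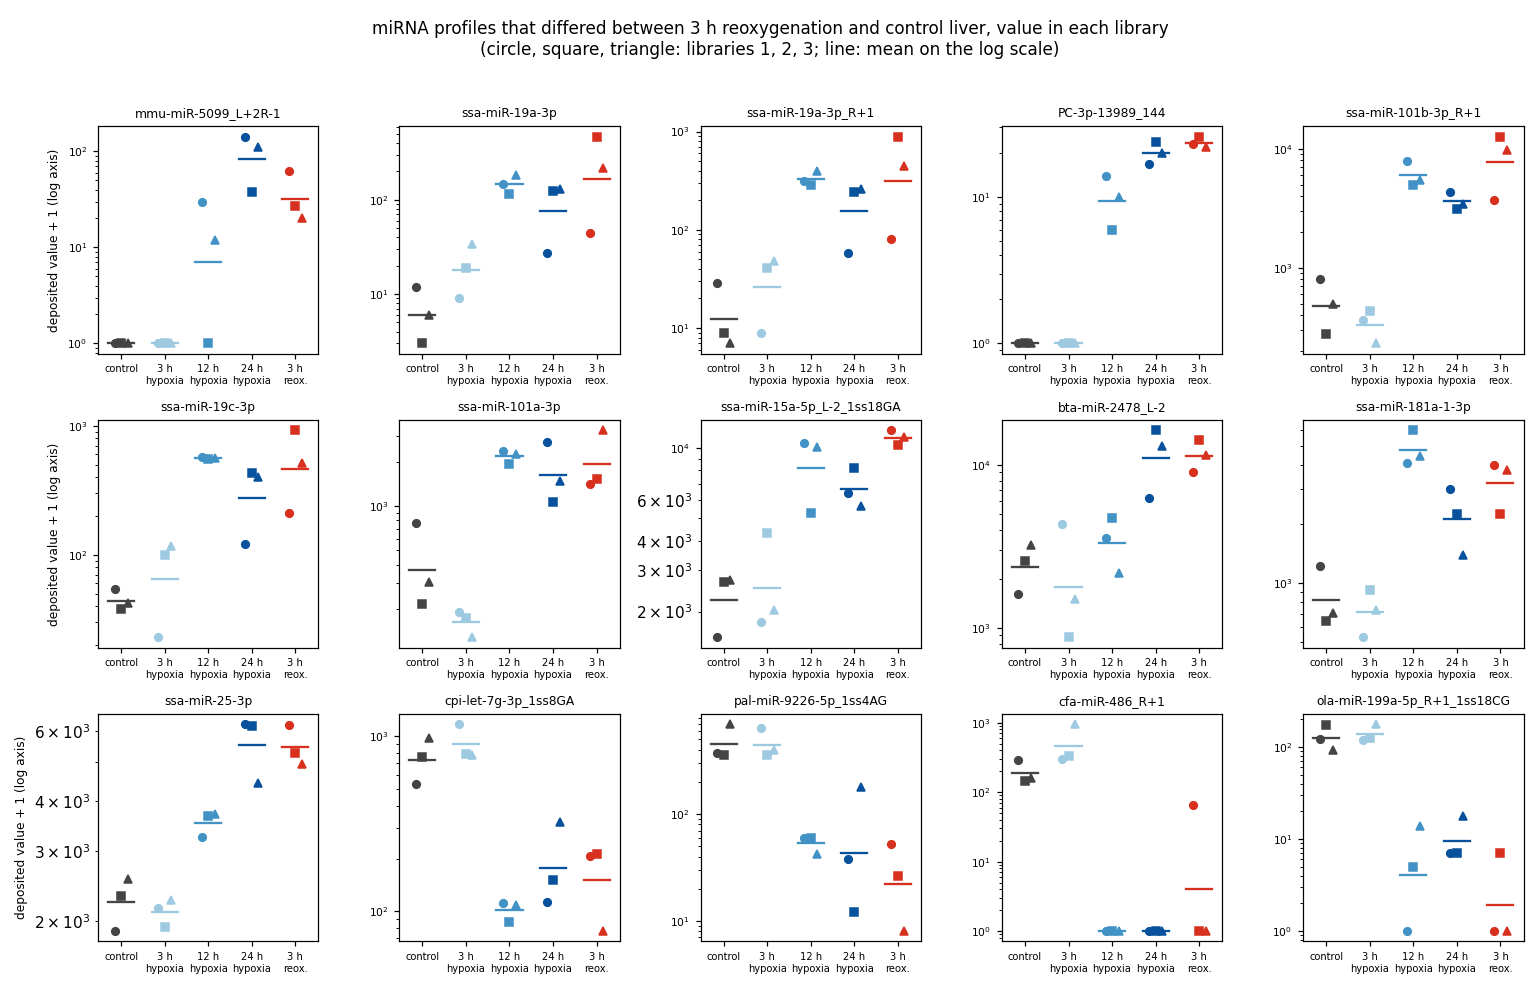
Deposited value plus 1 on a log axis for the 15 profiles that passed against control, in each of the 15 libraries; each panel is 1 profile, columns are the 5 groups, circle, square and triangle are libraries 1, 2 and 3, and the line is the mean on the log scale. The 3 reoxygenation libraries lie above the 3 controls in 11 panels and below them in 4, and the 3 hypoxia groups are drawn between them.

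The miR-101 family, which in mammals is known for repressing the chromatin enzyme EZH2, gave the smallest p. ssa-miR-101b-3p_R+1 was at 803, 277 and 499 in the control libraries and at 3697, 12705 and 9723 after reoxygenation. Its lowest reoxygenation library, library 1, lay more than 4 times above its highest control. The log2 difference was 4.00 ± 0.48 (SE), 16-fold, with limma adjusted p = 0.000362. Without reoxygenation library 1 it was 4.53 (limma adjusted p = 2.45e-05), and it passed in 24 of 25 other settings, the exception being the fit on the 6 libraries alone. ssa-miR-101a-3p was at 771, 214 and 302 in control and at 1416, 1517 and 3249 after reoxygenation. The groups did not overlap, and control library 1 was the control nearest to them. It differed by 2.37 ± 0.50 (SE) on the log2 scale, with limma adjusted p = 0.0157, and 2.59 without reoxygenation library 1 (limma adjusted p = 0.0106). It did not pass without control library 2 or 3 or without reoxygenation library 3. The other 2 tested profiles with this seed, gmo-miR-101a-3p and gmo-miR-101a-3p_R+1_1ss22TG, were low and did not pass, with log2 differences of 2.09 and 1.24. All 4 lay above 0, with a median of 2.23, where that of all profiles was -0.16. The family was chosen for its 2 calls, which are part of this median, so the median is no separate support for a rise of the family.

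The 5p arms of these precursors did not pass the test. ssa-miR-101b-5p_L+1R-3 was at 3291, 4029 and 3960 in control and at 2127, 3598 and 2312 after reoxygenation, a log2 difference of -0.52 ± 0.33 (SE) that did not pass (limma adjusted p = 0.475). The ratio of ssa-miR-101b-3p_R+1 to it was 0.244, 0.0688 and 0.126 in control and 1.74, 3.53 and 4.21 after reoxygenation. In every control library the 5p form was thus the more abundant of the pair, and in every reoxygenation library the 3p form was. The ratio of ssa-miR-101a-3p to ssa-miR-101a-5p_R-1 was 1.95, 0.450 and 0.694 in control and 5.62, 2.76 and 11.6 after reoxygenation. Both ratios come from values within a library, so a factor that scales a whole library leaves them as they are. An effect of GC content need not cancel: ssa-miR-101b-3p_R+1 has 31.8% GC and ssa-miR-101b-5p_L+1R-3 has 50%, and the ratios were not GC-corrected. The exact two-sided permutation p of each was 0.1, the smallest that 3 against 3 can give, and 0.117 adjusted over the 7 ratios compared. The numerators of all 7 were chosen because they had passed in these same libraries, so this p is no separate support for a change between arms.

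The miR-19 forms belong to the miR-17-92 group of clusters, known in mammals for promoting proliferation. ssa-miR-19a-3p was at 11, 2 and 5 in control and at 43, 469 and 219 after reoxygenation. Library 1 was the lowest of the reoxygenation libraries, and all 3 lay above the controls. This was a log2 difference of 4.79 ± 0.88 (SE), 27.6-fold, with limma adjusted p = 0.01. ssa-miR-19a-3p_R+1, the same sequence with 1 more base at its 3′ end, was at 28, 8 and 6 in control and at 80, 889 and 443 after reoxygenation, with a log2 difference of 4.70 ± 0.91 (SE) and limma adjusted p = 0.01. These 2 forms are not independent measurements. ssa-miR-19c-3p was at 53, 37 and 41 in control and at 210, 917 and 511 after reoxygenation, 10.5-fold, with limma adjusted p = 0.0112. Without reoxygenation library 1 the log2 differences of the 3 rose to 5.74, 5.68 and 3.96. Scaled to the library total, ssa-miR-19c-3p and ssa-miR-19a-3p_R+1 no longer passed (limma adjusted p = 0.0970 and 0.052), and none of the 3 passed without control library 2 or without reoxygenation library 3.

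All 8 tested profiles with the miR-19 seed lay above 0, from 0.32 to 4.79 with a median of 2.96, but 3 passed. The family was chosen for these 3, which are part of the median. Another, dre-miR-19c-3p_R-1, passed without reoxygenation library 1 (limma adjusted p = 0.000985): it was listed at 0 in all controls and in reoxygenation library 1, and at 39 and 32 in libraries 2 and 3. The most abundant member, ssa-miR-19d-3p, was at 1275, 3366 and 1625 in control and at 1246, 6596 and 3522 after reoxygenation. Its groups overlapped through library 1, and its log2 difference of 0.68 ± 0.66 (SE) did not pass (limma adjusted p = 0.643). The ratio of ssa-miR-19c-3p to ssa-miR-19c-5p_1ss21CT was 0.438, 0.191 and 0.328 in control and 3.18, 7.52 and 7.74 after reoxygenation, so the more abundant form of the pair differed here as well. These are single forms and not the sums of each arm. The 5p form itself was at 121, 194 and 125 in control and at 66, 122 and 66 after reoxygenation (limma adjusted p = 0.475).

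**Figure D2:**
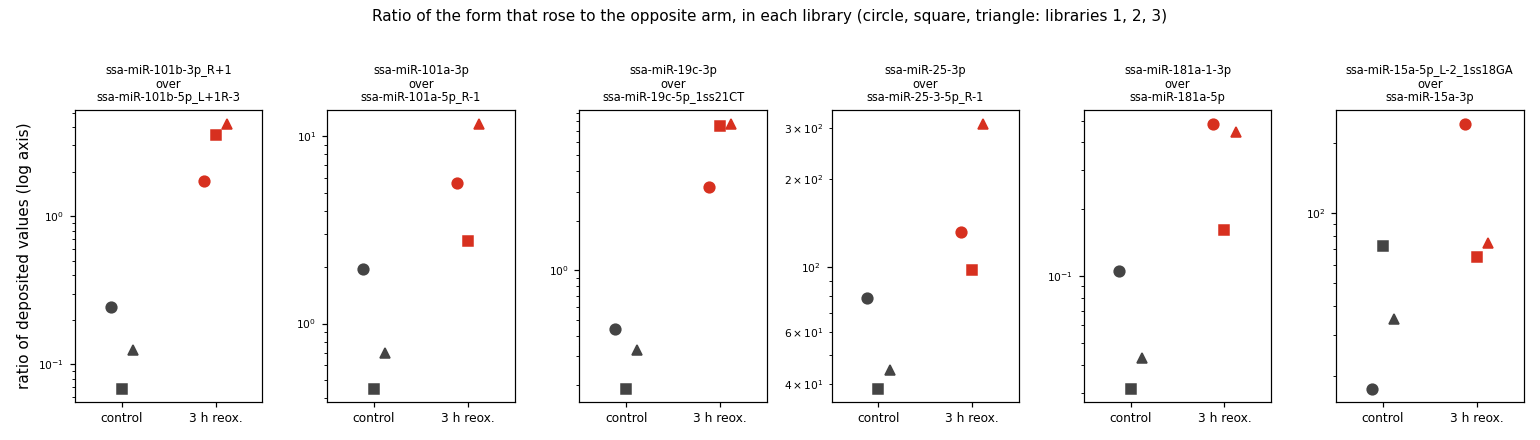
Ratio of the deposited value of the form that rose to that of the opposite arm, on a log axis, for 6 miRNAs; circle, square and triangle are libraries 1, 2 and 3 of control and of 3 h reoxygenation. The groups do not overlap for miR-101b, miR-101a, miR-19c, miR-25 and miR-181a-1, and they overlap for miR-15a. The forms that rose were chosen because they had passed in these same libraries.

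A miR-15a form passed with all libraries, and the other tested members of its family did not pass. ssa-miR-15a-5p_L-2_1ss18GA shares its seed with miR-16 and miR-457, and the miR-15 and miR-16 family is known in mammals for repressing cell cycle genes and BCL2. It was at 1553, 2664 and 2727 in control and at 11856, 10230 and 11118 after reoxygenation. The reoxygenation libraries were close to each other and all more than 3 times above the highest control. The log2 difference was 2.30 ± 0.40 (SE), 4.92-fold, with limma adjusted p = 0.0074, and 2.25 without reoxygenation library 1 (limma adjusted p = 0.00814). Scaled to the library total it was 1.89 and did not pass (limma adjusted p = 0.0879). Of 15 tested profiles with this seed, 11 lay above 0 and 4 below, from -1.20 to 2.35, with a median of 0.62. The most abundant, ssa-miR-16a-5p, was at 8721, 15427 and 12601 in control and at 22071, 13048 and 21304 after reoxygenation, which overlapped. ssa-miR-15d-5p was at 3303, 8160 and 9173 in control and at 4067, 3993 and 2268 after reoxygenation, a log2 difference of -0.92 that did not pass (limma adjusted p = 0.297). aca-miR-15a-5p_R+2_1ss10AG missed the threshold with all libraries, at a log2 difference of 2.35 (limma adjusted p = 0.0603), and passed without reoxygenation library 1 (limma adjusted p = 0.0437).

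Of the miR-25 and miR-92 family, which shares a seed and in mammals sits in related clusters, ssa-miR-25-3p rose. It was at 1889, 2311 and 2551 in control and at 6196, 5289 and 4959 after reoxygenation. The difference of 2.44 times was the smallest of the 15 calls, and its libraries were tight within each group. On the log2 scale it was 1.29 ± 0.28 (SE), with limma adjusted p = 0.0176. It was 0.88 scaled to the library total (limma adjusted p = 0.292) and 1.63 with the GC correction (limma adjusted p = 0.00451). The miR-92 members with the same seed did not pass with all libraries: ssa-miR-92a-3p was at 22749, 19806 and 20175 in control and at 17965, 16880 and 16553 after reoxygenation. All 3 lay below the controls, by a log2 difference of -0.29 (limma adjusted p = 0.667) that was 0.49 with the GC correction. ssa-miR-92b-3p was at 13785, 21043 and 25847 in control and at 8272, 26478 and 21024 after reoxygenation, with overlap. It differed by -0.23 (limma adjusted p = 0.836), and without reoxygenation library 1 and with the GC correction by 1.49, which passed (limma adjusted p = 0.00782). The 6 tested profiles with this seed ran from -0.47 to 1.29.

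The study singled out the row sha-miR-92a_L+2R+4 for functional work, a low form whose prefix names the Tasmanian devil. This row is named only after mammal entries, and its seed is not the one shared by the miR-25 and miR-92 profiles above. With all libraries, the median log2 difference of profiles so named was -0.52, against -0.10 for the others. The part of this in the difference of the row was not tested. sha-miR-92a_L+2R+4 was at 63, 78 and 77 in control and at 14, 25 and 14 after reoxygenation. All reoxygenation libraries lay below all controls, as in 9.65% of tested profiles. The log2 difference was -2.02 ± 0.58 (SE) and did not pass (limma adjusted p = 0.0770), and the exact two-sided permutation p was 0.1, the smallest that 3 against 3 can give. With forms summed, this row was pooled with other miR-92a rows named without an arm. The difference of that sum was -0.088 (limma adjusted p = 0.977), which is not a value of sha-miR-92a_L+2R+4 itself. With library weights sha-miR-92a_L+2R+4 was at -2.10 and passed (limma adjusted p = 0.0254). Against 24 h of hypoxia, where it was at 20, 18 and 40, the difference was -0.49, with a 95% interval from -1.73 to 0.74.

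ssa-miR-181a-1-3p, from the arm opposite to the abundant miR-181a-5p, was at 1221, 640 and 702 in control and at 4008, 2246 and 3755 after reoxygenation. The groups did not overlap. The log2 difference was 1.98 ± 0.40 (SE), 3.95-fold, with limma adjusted p = 0.0112. With forms summed the sum that holds it differed by 1.35 and did not pass (limma adjusted p = 0.0766). ssa-miR-181a-5p was at 11634, 20481 and 16309 in control and at 8286, 13891 and 8443 after reoxygenation, with overlap. The ratio of the first to the second was 0.105, 0.0312 and 0.0430 in control and 0.484, 0.162 and 0.445 after reoxygenation, so the 5p form remained the more abundant in all 6 libraries. Of 5 tested profiles with the seed of ssa-miR-181a-1-3p, it alone passed, and their median was 0.65.

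Among the 4 falls was a variant of miR-199a-5p, a miRNA that in mammals is known for repressing HIF1A, the oxygen-regulated transcription factor subunit. ola-miR-199a-5p_R+1_1ss18CG was at 121, 173 and 91 in control and at 0, 6 and 0 after reoxygenation. No reoxygenation library came near the lowest control. This gave a log2 difference of -6.03 ± 0.97 (SE), with limma adjusted p = 0.00554, and -5.56 without reoxygenation library 1 (limma adjusted p = 0.00531). The far more abundant main form ssa-miR-199a-5p was at 47447, 78255 and 37473 in control and at 14859, 59896 and 28494 after reoxygenation, which overlapped (log2 difference -0.82, limma adjusted p = 0.388). The variant made up 0.00255, 0.00221 and 0.00243 of the main form in the control libraries, a nearly constant ratio. It made up 0.000100 of it in reoxygenation library 2 and was listed at 0 in the other two. With all forms summed the difference was -0.82, and it did not pass (limma adjusted p = 0.413). All 6 tested profiles with this seed lay below 0, with a median of -2.41, and of -1.16 without reoxygenation library 1. The variant for which the family was chosen is part of these medians.

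cpi-let-7g-3p_1ss8GA, a 3p form of the let-7 family named after a painted turtle entry, was at 530, 762 and 976 in control and at 206, 212 and 76 after reoxygenation. It was 4.89 times lower, a log2 difference of -2.29 ± 0.49 (SE), with limma adjusted p = 0.0172. With the GC correction it was -1.35 and did not pass (limma adjusted p = 0.105), nor did it when scaled to the library total (limma adjusted p = 0.0603). The other 2 falls were in mammal-named rows. pal-miR-9226-5p_1ss4AG was at 376, 358 and 691 in control and at 51, 25 and 7 after reoxygenation, with limma adjusted p = 0.01. Its log2 difference was -4.36. With forms summed the sum that holds it differed by -1.07 and did not pass. cfa-miR-486_R+1, a form of a red blood cell miRNA, was at 285, 145 and 161 in control, and after reoxygenation it was at 65 in library 1 and listed at 0 in libraries 2 and 3. It passed with limma adjusted p = 0.0223, and 2.45e-05 without reoxygenation library 1. It did not pass with the GC correction (limma adjusted p = 0.0601). The other red blood cell markers were miR-451, at a summed 2431 to 7172 in control and 2833 to 6390 after reoxygenation, and miR-144, at 423 to 675 and 191 to 280. The part of blood content and of mammal-named rows in the fall of cfa-miR-486_R+1 was not tested.

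The remaining 3 rises were in rows without a fish name. The predicted candidate PC-3p-13989_144 was listed at 0 in all controls and at 22, 25 and 21 after reoxygenation (limma adjusted p = 0.01). mmu-miR-5099_L+2R-1 was listed at 0 in all controls and at 61, 26 and 19 (limma adjusted p = 0.0224). No fold is given against a group listed at 0. bta-miR-2478_L-2 was at 1612, 2585 and 3211 in control and at 9088, 14192 and 11425 after reoxygenation, 4.79-fold, with limma adjusted p = 0.034. It had the fewest passing settings of the 15, 14 of 24, and scaled to the library total it did not pass. Its sequence ends in CCA, the end that mature transfer RNAs carry, as does that of pal-miR-9226-5p_1ss4AG. Of 38 tested profiles with this end, 6.11% of all tested, these were the 1 that rose and the 1 that fell, which is 5.26%, against 2.41% of all tested. The median of the 38 was 0.21. Without reoxygenation library 1 it was -0.12, and 4 passed (10.5%, against 8.04% of all).

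**Figure D3:**
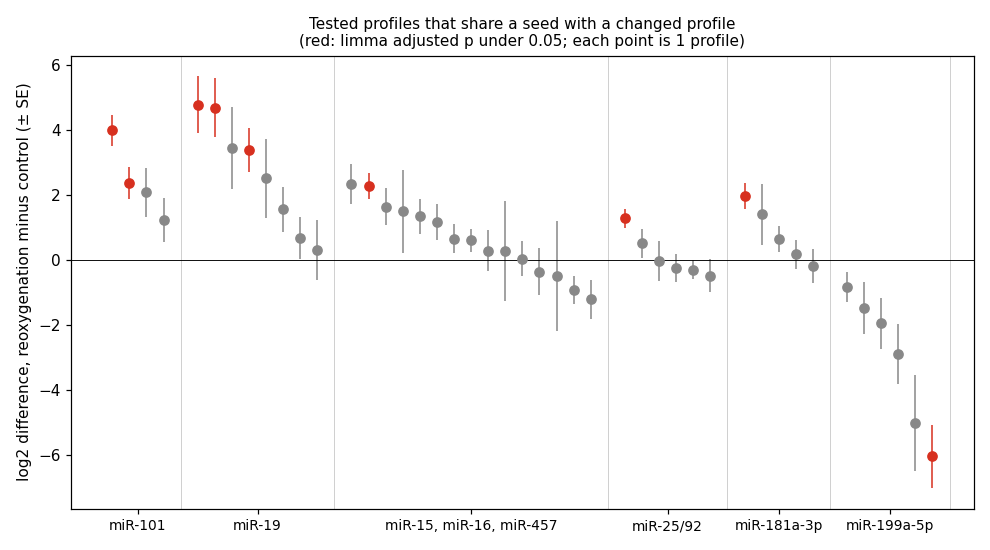
Log2 difference of reoxygenation minus control, with its SE, for each tested profile that shares a seed with a profile that passed, grouped by seed family; red marks a limma adjusted p under 0.05. All 4 miR-101 and all 8 miR-19 points lie above 0 and all 6 miR-199a-5p points below it, while the 15 points of miR-15, miR-16 and miR-457 lie on both sides.

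The profiles that passed differed in base composition. The median GC content was 40.9% for the 11 that rose and 60.4% for the 4 that fell, against 47.6% for all tested. With the per-library GC correction 13 of the 15 passed, and cpi-let-7g-3p_1ss8GA and cfa-miR-486_R+1 did not. ssa-miR-101b-3p_R+1 was then at 3.54 (limma adjusted p = 0.00082), ssa-miR-19a-3p at 4.51 (limma adjusted p = 0.017) and ssa-miR-15a-5p_L-2_1ss18GA at 2.25 (limma adjusted p = 0.00451), against 4.00, 4.79 and 2.30 without the correction.

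Without reoxygenation library 1 more profiles passed, most of them lower. limma called 50 of 622 (8.04%), 20 higher (3.22%) and 30 lower (4.82%), and all 15 calls made with every library were among them. Reoxygenation libraries 2 and 3 both lay above all controls in 87 profiles (14%) and below them in 143 (23%). Of the 30 lower profiles 23 were mammal-named (76.7%), where mammal-named profiles were 20.3% of those tested. The median log2 difference of the 126 mammal-named profiles was -1.83, against -0.10 for the 496 others. The filter on the mean used all 15 libraries here too, so some mammal-named profiles were tested only because of library 1. hsa-miR-625-3p, at 196 there, was at 6 or less in every other library. The shares and medians were not recomputed without such profiles, so they cannot measure a fall of mammal-named rows as a class. Of the 20 higher profiles, 2 were mammal-named. With a GC correction added, 39 passed (6.27%), 25 higher (4.02%) and 14 lower (2.25%), and scaled to the library total 48 passed, 11 higher and 37 lower.

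The 9 rises that passed only without reoxygenation library 1 included no mammal-named profile. ssa-let-7j-5p was at 22, 43 and 25 in control and at 67, 227 and 234 after reoxygenation, with a log2 difference of 2.96 over libraries 2 and 3 (limma adjusted p = 0.0115). All 3 of its reoxygenation libraries lay above the controls, and with all of them limma adjusted p was 0.0639. ssa-miR-122-2-3p_R-1, from the arm opposite to the main miR-122, was at 196, 258 and 468 in control and at 588, 1700 and 958 after reoxygenation, with 2.15 over libraries 2 and 3 (limma adjusted p = 0.0297). The remaining ones were ssa-miR-128-3p, ssa-miR-130a-5p, ssa-miR-30d-2-3p_R-1_1ss1TC, ssa-miR-190a-5p_R-2, ssa-miR-499b-5p_R-1 and the miR-19c and miR-15a forms given above. For ssa-miR-128-3p and ssa-miR-130a-5p, library 1 lay within the control range, at 7838 and 2736. For ssa-miR-30d-2-3p_R-1_1ss1TC it lay below that range, at 2015. Libraries 2 and 3 of each of these miRNAs lay between 5639 and 18166 and above all controls.

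Of the 30 falls, 7 were not mammal-named: the miR-199a and let-7g-3p forms, ssa-miR-462a-3p, aca-miR-193-5p_R+1 and the candidates PC-5p-8501_278, PC-5p-4288_696 and PC-5p-6248_417. ssa-miR-462a-3p was at 2939, 958 and 1849 in control and at 1095, 521 and 57 after reoxygenation. Libraries 2 and 3 lay below all controls and library 1 did not (limma adjusted p = 0.0482 without it). aca-miR-193-5p_R+1 was at 53, 53 and 106 in control, at 449 in library 1 and listed at 0 in libraries 2 and 3. PC-5p-4288_696 was at 160, 6 and 184 in control, 27 in library 1 and listed at 0 in the other two. Of the mammal-named falls, bta-miR-127 was at 183, 142 and 261 in control and at 16, 0 and 0 after reoxygenation, and bta-miR-423-3p_L-1 at 258, 210 and 360 and at 4474, 10 and 8. The first was low in every reoxygenation library and the second was high in library 1.

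**Figure D4:**
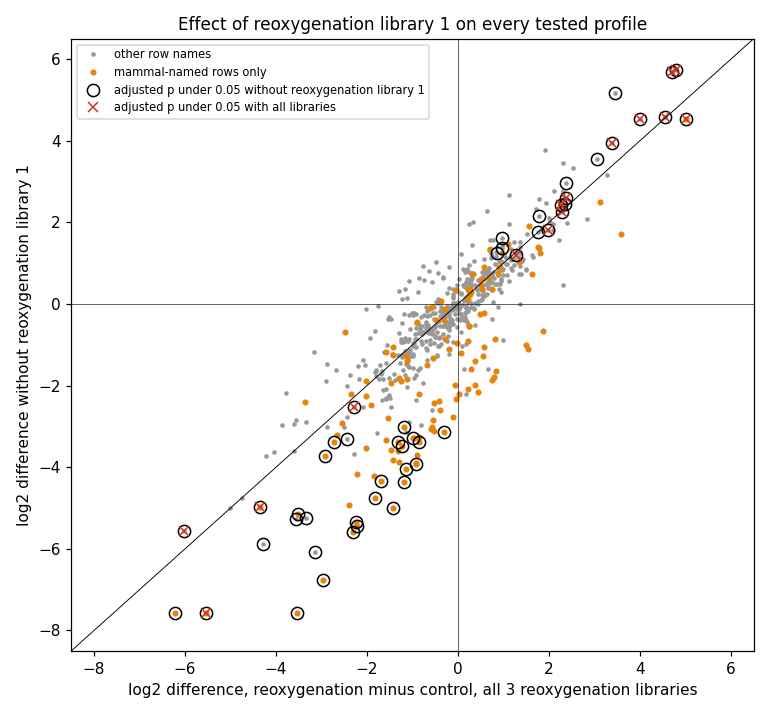
Log2 difference of reoxygenation minus control with all 3 reoxygenation libraries (x axis) and without library 1 (y axis) for the 622 tested profiles; orange marks mammal-named profiles, circles a limma adjusted p under 0.05 without library 1, crosses the same with all libraries, and the diagonal is equality. Many orange points lie below the diagonal, with a median of -0.52 on the x axis and -1.83 on the y axis, and the 11 rises stay in the upper right.

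A set of mammal-named profiles separated reoxygenation library 1 from every other library. In it 23 profiles were at least 10 times higher than in any of the other 14 libraries, 22 of them mammal-named. In the other libraries such profiles numbered 2 in library 1 of 24 h hypoxia, neither mammal-named, and 0 elsewhere. efu-miR-99b_R-3 was at 28177 in this library, at 87 and 66 in reoxygenation libraries 2 and 3, and at 645, 470 and 1026 in control. ssc-miR-125a was at 19915, then 31 and 23, against 521, 435 and 792, and bta-miR-320a at 8997, then 23 and 17, against 361, 235 and 479. These rows were thus present in the controls and lower in libraries 2 and 3 than in any control. cgr-miR-1260 was at 16459, then 512 and 490, against 650, 845 and 1368. cja-miR-197, hsa-miR-574-3p, mmu-miR-3968_L-3_1ss14AT, bta-miR-149-5p and hsa-miR-193b-3p were at 803 to 4369 in library 1 and listed at 0 in libraries 2 and 3, and eca-miR-151-5p was at 1539, 8 and 0.

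Summed over the 22, their share of the library total was 1.84% in reoxygenation library 1, 0.025% and 0.0141% in libraries 2 and 3, and 0.0607%, 0.0958% and 0.212% in the controls. Across the 22, the values of reoxygenation library 1 ranked much as those of the control libraries did, with Spearman's rho of 0.906, 0.945 and 0.947, as a description across profiles with no test. The rule that chose the 22 holds library 1 at 10 times each control value or more, so part of a positive rho is built in. Ranks were compared with the control libraries only, so the rho says nothing about the source of these rows. Of the 30 falls without library 1, 9 belong to the profiles at least 10 times higher in it, as do 19 of the 622 tested. Some of the 19 reached the mean of 10 only through library 1, so these counts are no fair comparison. The part of the source of these rows in those falls was not tested. Of the 15 calls made with all libraries, 0 belong to these profiles. They spread so widely within the reoxygenation group that they could hardly pass there, so this 0 says nothing about the calls. With mammal-named rows left out of the fit, the 11 calls in rows that are not mammal-named passed, 9 higher and 2 lower.

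**Figure D5:**
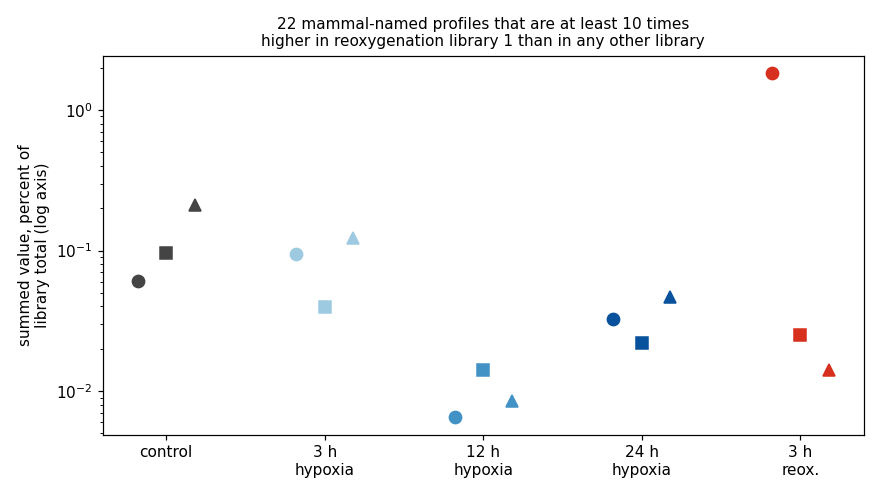
Percent of the library total, on a log axis, held by the 22 mammal-named profiles that are at least 10 times higher in reoxygenation library 1 than in any other library; circle, square and triangle are libraries 1, 2 and 3 of each of the 5 groups. Reoxygenation library 1 is at 1.84%, the controls are at 0.0607% to 0.212%, and reoxygenation libraries 2 and 3 at 0.025% and 0.0141%.

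Against 24 h of hypoxia, a comparison that shares the reoxygenation libraries with the one above, no profile passed. limma called 0 of 622 (0%), with 18 at an unadjusted p under 0.05 and a smallest limma adjusted p of 0.985, and it called 0 in all settings run, with 5 to 58 at an unadjusted p under 0.05. A p that misses the threshold does not show that the levels were alike, so intervals follow. In each profile given here, all 24 h hypoxia libraries also lay beyond all controls, on the same side as the reoxygenation libraries. The comparison with control therefore cannot tell a change that came with reoxygenation from one already present under hypoxia. ssa-miR-101b-3p_R+1 was at 4383, 3149 and 3413 after 24 h of hypoxia, and the log2 difference after reoxygenation was 1.09, with a 95% interval from 0.06 to 2.12 before adjustment. For ssa-miR-25-3p, at 6222, 6152 and 4431, the difference was -0.02, from -0.62 to 0.57. For ssa-miR-15a-5p_L-2_1ss18GA, at 6401, 8174 and 5661, it was 0.73, from -0.12 to 1.57. For ssa-miR-19a-3p, at 26, 124 and 129, the interval was wide, from -0.75 to 3.0 around 1.12. ola-miR-199a-5p_R+1_1ss18CG was at 6, 6 and 17, and its difference was -2.33, from -4.40 to -0.25 before adjustment.

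Of 77 tested profiles on the list of miRNAs known for their response to oxygen 1 rose, ssa-miR-181a-1-3p, and 1 fell, the miR-199a variant. That is 2.6% of the list, near the 2.41% of all tested profiles that passed. Its median was -0.39, and -0.54 without reoxygenation library 1, where 3 passed (3.9%, against 8.04% of all). miR-210, induced by hypoxia in many vertebrates, did not pass in any of 5 profiles, which ran from -2.01 to 0.82 with a smallest limma adjusted p of 0.312. ssa-miR-210-5p was at 3637, 5236 and 4355 in control and at 8974, 5109 and 3890 after reoxygenation, with overlap. miR-462 and miR-731 form a teleost cluster that responds to hypoxia in zebrafish. ssa-miR-462a-5p was at 135246, 44223 and 55725 in control and at 75561, 91867 and 17102 after reoxygenation, and ssa-miR-731-5p at 34483, 18658 and 21111 and at 7950, 46521 and 5411. Both pairs overlapped, with library 2 the highest after reoxygenation. ssa-miR-731-5p differed by -0.92 (limma adjusted p = 0.492), and without reoxygenation library 2 by -1.86, which passed (limma adjusted p = 0.0397). The 5 miR-462 profiles ran from -3.60 to -0.00053 and the 5 miR-731 profiles from -2.36 to -0.92, with smallest limma adjusted p of 0.194 and 0.354. The 8 miR-92 profiles ran from -2.68 to 0.52, with a smallest limma adjusted p of 0.0770, that of the form the study singled out.

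The hepatocyte list goes beyond the liver parenchyma markers. In it 2 of 63 profiles rose, the miR-101 forms, and 0 fell (3.17%, against 2.41% of all tested profiles), and the median was 0.07. Without reoxygenation library 1 the count was 4, all higher (6.35%, against 8.04% of all), with ssa-miR-30d-2-3p_R-1_1ss1TC and ssa-miR-122-2-3p_R-1 added. ssa-miR-122-5p_R-1, the leading miRNA, was at 1386724, 834238 and 512308 in control and at 2733978, 703906 and 2228801 after reoxygenation. Library 2 lay within the control range, and the log2 difference of 0.95 ± 0.62 (SE) did not pass (limma adjusted p = 0.483). The 5 miR-122 profiles ran from -0.67 to 2.31. In the miR-17-92 list 4 of 38 rose, the miR-19 forms and ssa-miR-25-3p, and 0 fell (10.5%), with a median of -0.11. The count was 5 without reoxygenation library 1 (13.2%), with a median of -0.13. Both counts include ssa-miR-19a-3p and ssa-miR-19a-3p_R+1, which are not independent, so these shares are no measure of separate miRNAs. In the let-7 list 0 of 31 rose and 1 fell (3.23%), and without reoxygenation library 1 it was 1 and 2 (9.68%). ssa-let-7e-5p was at 57619, 20668 and 23515 in control and at 74020, 44941 and 120661 after reoxygenation (limma adjusted p = 0.245, and 0.0193 with library weights), and ssa-let-7a-5p at 28746, 40050 and 39416 and at 34394, 89782 and 82696 (limma adjusted p = 0.354). In the metabolic list 0 of 41 passed, with a median of 0.07 that was -0.42 without reoxygenation library 1, where 0 passed as well, with tni-miR-27c at a log2 difference of -0.57 and ssa-miR-26a-5p at -0.41.

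The lists of other cell types held 0 to 2 calls each. The red blood cell list likewise goes beyond the markers miR-451, miR-144 and miR-486. In the red blood cell list 1 of 32 rose, the miR-15a form, and 1 fell, cfa-miR-486_R+1 (6.25%, against 2.41% of all tested profiles), and the abundant gmo-miR-16b-5p_R-1_1ss17TC and ssa-miR-16a-5p had log2 differences of 1.36 and 0.62. In the white blood cell and inflammation list 1 of 38 rose, ssa-miR-181a-1-3p (2.63%), with a median of -0.30, and of -0.76 without reoxygenation library 1. ssa-miR-146a-5p, induced in inflammation in mammals, was at 256593, 65914 and 63500 in control and at 22723, 61512 and 21635 after reoxygenation. All 3 lay below the controls, though library 2 closely, and the difference of -1.72 ± 0.54 (SE) did not pass (limma adjusted p = 0.121). Without reoxygenation library 2 it was -2.21 and passed (limma adjusted p = 0.043). ssa-miR-21b-5p differed by -0.48. In the endothelial and stromal list 0 of 24 rose and 1 fell, the miR-199a variant (4.17%), and ssa-miR-143-3p_R+1 differed by 0.42. miR-126 of endothelium summed to 5052 to 18228 in control and to 10299 to 58346 after reoxygenation, with overlap. In the epithelial list 0 of 12 passed, with a median of -0.55, and of -1.12 without reoxygenation library 1, with ssa-miR-200a-3p_R-1 at a log2 difference of -0.45 and ssa-miR-200b-3p_R-1 at -0.83.

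Muscle miRNAs were low in this liver, with 3 profiles tested and 0 past the threshold. ssa-miR-499b-5p_R-1 was at 546, 529 and 367 in control and at 1599, 1136 and 2283 after reoxygenation. The groups did not overlap, and the log2 difference of 1.76 ± 0.45 (SE) narrowly missed (limma adjusted p = 0.0567). It passed without reoxygenation library 1 (limma adjusted p = 0.0482). The 8 muscle profiles summed to 510 to 651 in control and 1217 to 2361 after reoxygenation. Most of it was miR-499, at 371 to 551 in control and 1139 to 2286 after reoxygenation. miR-1 was at 8 to 28 and 16 to 31, miR-133 at 48 to 106 and 19 to 62, and miR-206 was listed at 0 in 4 of the 6 libraries. In the neural and endocrine list 0 of 12 passed, where ssa-miR-128-3p and ssa-miR-375-3p differed by 0.85 and 0.03. Without reoxygenation library 1, 1 of 3 muscle profiles passed (33.3%) and 1 of 12 here, ssa-miR-128-3p (8.33%), against 8.04% of all tested profiles. With 2.41% of all tested profiles passing, a count of 0 in lists of 3 and 12 says nothing about these cell types.

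The next 10 profiles by unadjusted p, none past the threshold, had limma adjusted p of 0.0567 to 0.0649. Beside those given above they held ssa-miR-152-3p, a relative of miR-148 of liver, at 19631, 3959 and 7139 in control and at 28098, 31655 and 40408 after reoxygenation. It lay above all controls, by a log2 difference of 2.01 ± 0.55 (SE), and passed without control library 1 (2.63, limma adjusted p = 0.0118). tni-miR-187_R+3 was at 24, 13 and 41 in control and at 157, 69 and 104, and dre-let-7a_1ss9TG at 15, 51 and 39 and at 659, 88 and 205. Lower were ola-miR-146a-5p_L+2R-2 at 94, 16 and 19 against 0, 4 and 3, mmu-mir-6240-p3_1ss2TG at 39, 45 and 31 against 0, 10 and 4, and PC-3p-34703_37 at 32, 35 and 22 against 0, 5 and 0. These 5 low profiles, from tni-miR-187_R+3 to PC-3p-34703_37, passed in limma without reoxygenation library 2. With the GC correction tni-miR-187_R+3 and ola-miR-146a-5p_L+2R-2 passed, at 2.63 and -3.84 (limma adjusted p = 0.0193 and 0.0419). Of the 10 most abundant profiles none passed, and among those not yet given ssa-miR-22a-3p, ssa-miR-100a-5p_R-1 and ssa-miR-30b-5p_R-1 differed by 0.67, -0.44 and -0.67.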

How the data were processed

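The authors deposited 1 table of small RNA values, 1 for each row in each library. Its unit is taken as a score, since the authors normalized and rounded the values and the sources used here do not give the scale. The table's name calls them TPM, but the columns sum to different totals, and they are neither raw counts nor set to a shared sum. Per the labels' protocols, total RNA was extracted with Trizol and libraries were made by standard Illumina protocols. No source used here names the aligner, the miRNA database release, the build or the filters, and the depth per library is unknown. Groups and replicate numbers came from the sample titles.

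Rows with the same 15 values were counted once. Profiles averaging 10 or more in the 15 libraries entered limma 3.58.1 (R 4.3.3) as log2(value + 1), a scale on which changes of low profiles come out too small. Fits that left a library out kept this filter over all 15 libraries. A single fit held all 5 groups, with the variance as a trend on the mean. Benjamini-Hochberg adjustment ran over all 622 profiles, with a threshold of 0.05. Intervals are at 95%. Exact permutation tests used Python with scipy 1.17.1. The fit was tested on simulated data with 200 changed profiles. These data had the same spread in every group and no outlying library, so the test does not cover a library like reoxygenation library 1. Mammal-named profiles carry only row names of mammal entries. GC correction was a lowess on GC content per library (span 0.5). Other settings were pseudocounts of 0.5, 5 and 10, other filters, scalings and variance models, forms summed, a replicate block, the compared groups alone, mammal-named rows left out, and each library left out. With forms summed, profiles with the same miRNA number, letter and arm were added, so such a value belongs to the sum and not to a single form. Leaving out reoxygenation library 1 together with control library 1, the GC correction or scaling to the library total was added after seeing the data.

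Named were all profiles past the threshold, those past it without reoxygenation library 1 (the 10 largest rises and falls with a higher group mean of at least 50), the 10 next smallest p, the main forms of miR-122, miR-92, miR-210, miR-731 and miR-462, the 2 most abundant members of each of 11 lists, the 10 most abundant profiles, and the 10 highest mammal-named profiles that were at least 10 times higher in reoxygenation library 1. Opposite arms, seed relatives, profiles that passed only with the GC correction and further profiles without reoxygenation library 1 were named after their values were seen. List members were found by miRNA number, and lists can overlap. The comparison, the lists and the naming rule were chosen with earlier results of these data known.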

Additional observations from a re-analysis of the deposited data

How the results depend on the processing

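Depth cannot be judged, since no counts were used, and the scale of the values is unknown. Groups of 3 allow no exact p under 0.1. Over the 15 profiles that passed, 337 values under other settings kept direction and side of the threshold, 77 kept the direction but did not pass, and 0 changed sign. The count of 15 was 90 with library weights (37 higher, 53 lower), 0 with only the groups compared, and 3 to 50 with 1 library left out. It was 41 without reoxygenation library 1 and control library 1, 39 without the former and with the GC correction, and 48 without it and scaled to the library total. The difference of sha-miR-92a_L+2R+4 was -1.60 to -2.43 with another pseudocount, scaling or the GC correction, and -1.89 to -2.29 with 1 library left out, with exact permutation p of 0.1 to 0.2. With forms summed, the sum that holds it and other miR-92a rows without an arm differed by -0.088. Against 24 h of hypoxia every setting gave 0 calls.

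With a replicate block the count was 20, 16 higher and 4 lower, with all 15 calls among them. Same-numbered libraries of control and reoxygenation had correlations of their deviations from the group means of 0.03, 0.22 and -0.30. For 24 h hypoxia and reoxygenation these were 0.53, 0.35 and -0.03. Not every library correlated best with its own number. With groups of 3 these values cannot decide whether the numbers pair the samples, which stays unknown. Against 24 h of hypoxia the block gave 0 calls (19 at an unadjusted limma p under 0.05).

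Of the other named profiles, none of which passed with all libraries, these log2 differences changed sign, and the cause was not tested. With the GC correction they were 0.49 for ssa-miR-92a-3p, 0.91 for ssa-miR-92b-3p and 0.84 for efu-miR-99b_R-3. Without reoxygenation library 1 and with that correction they were 0.47 for ssa-miR-92a-3p, 1.49 for ssa-miR-92b-3p, which then passed (limma adjusted p = 0.00782), 0.23 for ssa-miR-199a-5p, 0.19 for ssa-miR-133b-3p_L-1R+2 and 0.39 for ssa-miR-30b-5p_R-1. Without that library and scaled to the library total they were -0.21 for ssa-miR-210-5p, 0.030 for ssa-miR-92b-3p and -1.10 for cgr-miR-1260. Scaled to the library total with all libraries they were -0.044 for ssa-miR-210-5p and -0.38 for ssa-miR-375-3p, which was -0.16 with quantile normalization. With library weights they were -0.022 for ssa-miR-210-5p, 0.040 for ssa-miR-100a-5p_R-1, 0.0012 for ssa-miR-30b-5p_R-1 and -0.71 for cgr-miR-1260. With forms summed the sum that holds mmu-mir-6240-p3_1ss2TG was at 0.20, and with a pseudocount of 10 mmu-miR-3968_L-3_1ss14AT was at 0.41 and eca-miR-151-5p at 0.26. Leaving out 1 library, or reoxygenation library 1 together with control library 1, gave values on both sides of 0 for 13 of them: -4.41 to 0.50 for ssc-miR-125a, -0.099 to 0.63 for ssa-miR-210-5p, -0.95 to 0.27 for ssa-miR-462a-5p, -0.57 to 0.27 for ssa-miR-92b-3p, -1.26 to 0.60 for ssa-miR-200a-3p_R-1, -0.32 to 0.61 for ssa-miR-375-3p, -0.76 to 0.040 for ssa-miR-100a-5p_R-1, -0.996 to 0.18 for ssa-miR-30b-5p_R-1, -3.18 to 1.21 for efu-miR-99b_R-3, -1.10 to 1.67 for cgr-miR-1260, -4.05 to 0.43 for bta-miR-320a, -5.01 to 0.35 for mmu-miR-3968_L-3_1ss14AT and -3.96 to 1.37 for eca-miR-151-5p.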
